A study of Mus musculus with 21 samples.

Results

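The genes described here are those of oxidative phosphorylation, the protein subunits of respiratory complexes I to IV and of the ATP synthase, measured by bulk mRNA sequencing in tuft cells of 5 mouse tissues. Members were chosen by symbol: protein-coding genes beginning mt-, Nduf, Uqcr or Atp5, cytochrome c oxidase genes of the Cox4 to Cox8 families, and Sdha, Sdhb, Sdhc and Sdhd. The rule found 106 of the 43432 genes counted, 13 encoded in mitochondrial DNA and 93 in the nucleus. It also took in 8 complex I assembly factors (Ndufaf), which are described apart from the subunits. Of the nuclear genes, 36 belonged to complex I, 4 to complex II, 8 to complex III, 20 to complex IV and 17 to complex V, with Ndufa4 and Ndufa4l2 placed in complex IV.

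Tuft cells are rare chemosensory epithelial cells, and the study compared them across tissues, with other small intestinal epithelium as the reference. All mice were naive C57BL6 animals homozygous for Flare25, a reporter allele of Il25, and were the only genotype used. Tuft cells were sorted as Flare25+, EPCAM+, CD45-, DAPI- cells from small intestine (3 libraries), colon (4), gall bladder (3), thymus (4) and trachea (4), and the reference was the Flare25- part of the same gate in small intestine (3 libraries). Colon, gall bladder, thymus and small intestinal libraries each came from 1 male mouse of 12 weeks, and tracheal libraries from pools of 4 mice of 12 to 16 weeks, of which pools 1 and 2 were male and pools 3 and 4 female. Sorted cells per library numbered 35000 to 36000 for small intestinal tuft cells, 13500 to 16000 for colon, 1750 to 2700 for gall bladder, 1350 to 1900 for thymus, 130 to 453 for trachea and 52000 to 57000 for the non-tuft reference. Intestine and gall bladder were dissociated with EDTA, thymus with Liberase and trachea with Dispase and trypsin, so tissue, preparation and cell number cannot be told apart. Of 4 sorted samples per group, the depositors dropped 1 each of small intestinal tuft, gall bladder and non-tuft cells for failed quality control.

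Electrons from NADH enter the respiratory chain at complex I and those from succinate at complex II; complex III passes them to cytochrome c, and complex IV to oxygen. Complexes I, III and IV pump protons out of the mitochondrial matrix, and the return of these protons through complex V, the ATP synthase, drives the synthesis of ATP. Each complex except complex II is built from products of both the mitochondrial and the nuclear genome, and several complex IV subunits exist as pairs of isoforms with different tissue distributions. In tuft cells of the small intestine, mitochondrial metabolism is of interest because these cells sense succinate made by microbes through the receptor Sucnr1.

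Of the 13 mitochondrial genes, 5 had few counts over all 21 libraries together, and the sequences show what 4 of them share with the nuclear genome. The mouse reference holds a stretch of chromosome 1 that carries near-identical copies of part of the mitochondrial genome, annotated as pseudogenes. The first 60 bases of mt-Co2 (chrM:7013-7072, plus strand) and of its copy Gm28661 (chr1:24615506-24615565, minus strand), and of mt-Nd3 (chrM:9459-9518, plus strand) and its copy Gm28438 (chr1:24613060-24613119, minus strand), are shown in GRCm38 from 5′ to 3′. Capitals mark the only base that differs.
mt-Co2: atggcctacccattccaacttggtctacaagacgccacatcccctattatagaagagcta
Gm28661: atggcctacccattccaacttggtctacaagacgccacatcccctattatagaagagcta
mt-Nd3: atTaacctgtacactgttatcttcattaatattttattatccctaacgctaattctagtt
Gm28438: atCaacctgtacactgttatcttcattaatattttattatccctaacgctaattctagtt

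All 681 compared bases of mt-Co2 were the same in Gm28661, and the 345 compared bases of mt-Nd3 and Gm28438 differed by 1 substitution, T3C, counted from the first base of mt-Nd3. Of the 50-base windows of mt-Co2, mt-Co3, mt-Atp6 and mt-Nd4l, 100%, 99.9%, 99.5% and 98.8% also occurred in the annotated transcript of another gene, and these genes had 8, 7, 13 and 22 counts in total over the 21 libraries. For mt-Nd3 the share was 98.0%, with 6574 counts. The share was 62.2% for mt-Nd4, 51.1% for mt-Co1, 8.19% for mt-Nd2 and 7.61% for mt-Nd5, and 0% for mt-Nd1, mt-Nd6 and mt-Cytb, which had 26451011, 2303992 and 29374776 counts. The sources used here do not say how reads with several matches were treated, so the counts of the genes with shared windows are uncertain. The fifth gene, mt-Atp8, which overlaps mt-Atp6 on the same strand, had no count in any library and no window shared with another annotated transcript. The search covered annotated transcripts only, so it cannot tell whether mt-Atp8 has an unannotated copy on chromosome 1. The 7 annotated copies on chromosome 1 summed to 72.8 CPM (counts scaled to a common library size) in small intestinal tuft cells, 38.5 in colon, 17.9 in gall bladder, 5.26 in thymus and 9.92 in trachea, against 49.2 CPM in non-tuft cells.

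The nuclear genes are read from many separate promoters, of which 4 are shown from 250 bases before to 50 bases after the RefSeq start (GRCm38.p6), 5′ to 3′ on the gene's strand, because Atp5k, Uqcr11 and Cox7a1 were among the members that differed most between tissues and Cox6a1 was among the most abundant per length. Capitals mark letters found by searching both strands for CGCATGCG (the core of the NRF1 motif), CCGGAAG (ETS, as bound by GABP), AAGATGGCG (YY1) and TCAAGGTCA (ERR).
Atp5k, chr5:108434350-108434649, minus strand: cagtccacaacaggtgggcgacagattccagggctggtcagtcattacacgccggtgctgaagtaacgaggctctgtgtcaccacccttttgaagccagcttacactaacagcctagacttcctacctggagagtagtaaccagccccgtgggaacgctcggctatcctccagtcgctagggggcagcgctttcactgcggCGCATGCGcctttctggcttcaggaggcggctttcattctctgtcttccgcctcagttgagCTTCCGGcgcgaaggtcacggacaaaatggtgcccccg
Uqcr11, chr10:80406772-80407071, minus strand: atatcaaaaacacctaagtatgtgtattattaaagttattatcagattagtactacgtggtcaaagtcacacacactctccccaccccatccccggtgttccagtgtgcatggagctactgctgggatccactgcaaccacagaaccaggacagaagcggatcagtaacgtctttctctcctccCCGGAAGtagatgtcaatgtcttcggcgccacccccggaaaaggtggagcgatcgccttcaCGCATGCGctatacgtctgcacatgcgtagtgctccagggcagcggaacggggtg
Cox6a1, chr5:115348909-115349208, minus strand: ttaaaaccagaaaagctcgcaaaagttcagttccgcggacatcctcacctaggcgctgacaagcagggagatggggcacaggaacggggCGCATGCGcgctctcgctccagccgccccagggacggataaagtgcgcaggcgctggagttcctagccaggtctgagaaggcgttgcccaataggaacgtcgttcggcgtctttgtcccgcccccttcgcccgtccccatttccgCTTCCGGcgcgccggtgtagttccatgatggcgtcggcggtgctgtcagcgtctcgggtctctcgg
Cox7a1, chr7:30183921-30184220, plus strand: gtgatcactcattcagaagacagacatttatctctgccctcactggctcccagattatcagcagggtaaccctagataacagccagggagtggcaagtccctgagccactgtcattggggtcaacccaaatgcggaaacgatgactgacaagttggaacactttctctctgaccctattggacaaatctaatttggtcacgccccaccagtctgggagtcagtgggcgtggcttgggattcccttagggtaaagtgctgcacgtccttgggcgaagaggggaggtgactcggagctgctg

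Atp5k, Uqcr11 and Cox6a1 each held the NRF1 and the ETS letters, and Cox7a1 none of the 4 motifs, none of which is contained in another. The promoters shown are examples and do not stand for the members that differed between tissues. Of the 5 nuclear members with the smallest p among tissues, Ndufa13, Ndufa5 and Atp5b held none of the 4 motifs. Atp5j2 held the YY1 letters only, and Uqcr11 is shown above. Promoters were matched for 74 of the 93 nuclear members. The NRF1 letters occurred in 11 of these 74 (14.9%), against 2.07% of all 27025 promoters of the same length, and the ETS letters in 18 (24.3%), against 9.93%. The YY1 letters occurred in 8 (10.8%), against 1.64% of all promoters, and the ERR letters in 2 (2.70%), against 0.466%.

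Total counts ran from 25739248 to 73574745 per library. Tuft markers were at 1 CPM or more for 20 of 20 genes in tuft cells of small intestine, colon, thymus and trachea and for 19 of 20 in gall bladder, against 18 of 20 in non-tuft cells. They summed to 28236 to 37946 CPM in small intestine, 6075 to 7969.6 in colon, 24983 to 27939 in gall bladder, 8636 to 10087 in thymus and 14125 to 27631 CPM in trachea, against 274 to 512 CPM in non-tuft cells. Of the 27 library pairs within a group, none agreed within sampling noise. All levels below are CPM scaled by the trimmed mean of M-values (TMM), and a member is called where edgeR's quasi-likelihood test gave an adjusted p (Benjamini-Hochberg over all genes tested) under 0.05. In bulk samples, fewer cells of a type and less RNA per cell cannot be told apart.

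The mitochondrial transcripts were the most abundant members, highest in small intestinal and lowest in thymic tuft cells. The 13 mitochondrial-encoded members summed to 383291, 231593 and 245292 CPM in small intestinal tuft cells and 148311, 185284, 122273 and 131237 CPM in colon tuft cells. The sum was 112458, 115206 and 106406 CPM in gall bladder, 23318, 21328, 25763 and 30092 CPM in thymus and 48872, 97540.2, 69663 and 68362 CPM in trachea, against 193706, 166080.0 and 157097 CPM in non-tuft cells. Small intestinal tuft libraries lay above all others and thymic libraries below all others, with no overlap. As a share of raw counts the same genes took 19.8 to 27.3% in small intestinal tuft cells, 12.6 to 17.7% in colon, 9.14 to 11.1% in gall bladder, 2.99 to 4.08% in thymus, 4.83 to 8.84% in trachea and 14.6 to 17.9% in non-tuft cells. Of the 13, mt-Co2, mt-Co3, mt-Atp6, mt-Nd4l and mt-Atp8 each had at most 22 counts over all libraries. These sums and shares, and the ratios below, thus rest on the other mitochondrial members.

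The 93 nuclear-encoded members together were at 16941, 13236 and 15386 CPM in small intestinal tuft cells, 7786, 9803, 10284 and 10326 CPM in colon and 20108, 10758 and 10807 CPM in gall bladder. They were at 4055, 6229, 5758 and 4996 CPM in thymus and 7738, 8421, 5965 and 5522 CPM in trachea, against 11927, 12108 and 11385 CPM in non-tuft cells. On this scale small intestinal tuft cells and non-tuft cells did not overlap, and thymus and trachea overlapped with each other. The 3 gall bladder libraries reached above the small intestinal tuft range and below the non-tuft range. As a share of raw counts the nuclear members took 1.13 to 1.27% in small intestinal tuft cells and 1.06 to 1.13% in non-tuft cells, which overlapped. Their mean raw share was 1.20% in small intestinal tuft cells, 0.949% in colon, 1.23% in gall bladder, 0.736% in thymus and 0.674% in trachea. Which tuft groups were highest and lowest thus depended on scaling. The mean ratio of the mitochondrial to the nuclear sum was 18.7 ± 3.50 in small intestinal tuft cells, 15.6 ± 3.87 in colon, 8.72 ± 2.74 in gall bladder, 4.92 ± 1.20 in thymus and 10.5 ± 2.80 in trachea, against 14.6 ± 1.43 in non-tuft cells (SD, n = 3 or 4). The ratios of small intestinal tuft and non-tuft cells overlapped, and thymus had the lowest mean. Thymus, trachea and gall bladder were sorted in the smallest cell numbers, and the part of cell number in these levels was not tested.

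**Figure D1:**
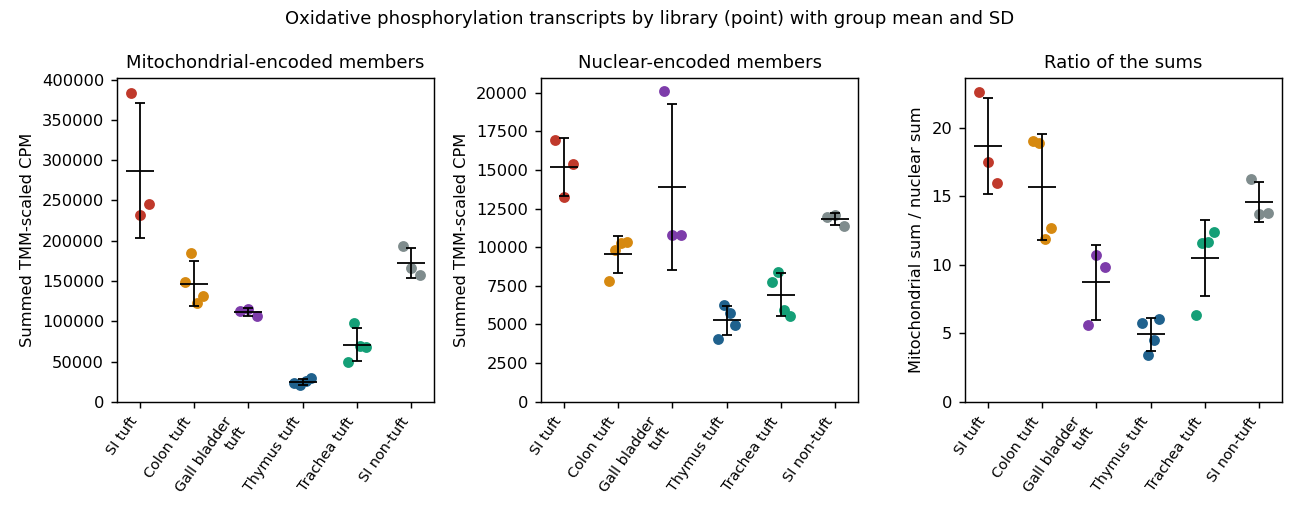
Summed TMM-scaled CPM of the 13 mitochondrial-encoded members (left), of the 93 nuclear-encoded members (middle) and their ratio (right); each point is a library, and bars give the group mean and SD (n = 3 or 4). On this TMM scale thymic tuft cells had the lowest mean in each panel, and gall bladder library 1, at 20108 CPM, stands above the other 2 in the nuclear sum. As a share of raw counts, trachea had the lowest nuclear mean. The mitochondrial sum holds almost no counts of mt-Co2, mt-Co3, mt-Atp6, mt-Nd4l and mt-Atp8.

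Among the mitochondrial genes that could be counted, mt-Nd1, mt-Cytb and mt-Co1 had the highest levels per length. In small intestinal tuft cells mt-Nd1, a membrane subunit of complex I, averaged 64632 CPM per kb, mt-Cytb, the cytochrome b of complex III, 59050.2, and mt-Co1, the catalytic subunit of complex IV, 47101. In thymus mt-Cytb led with 6367 CPM per kb, ahead of mt-Nd1 with 5198 and mt-Co1 with 3438. The most abundant nuclear member per length in small intestinal tuft cells, Cox6a1 of complex IV, averaged 869 CPM per kb. The order of the groups, from small intestinal tuft cells at the top through non-tuft cells, colon, gall bladder and trachea to thymus, was the same in the group means of mt-Nd1, mt-Nd2, mt-Nd3, mt-Nd4, mt-Nd5, mt-Nd6, mt-Cytb and mt-Co1. Neighbouring groups overlapped in part: in mt-Nd1 colon libraries ran from 25784 to 40652 CPM and gall bladder libraries from 24779.5 to 26509 CPM.

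**Figure D2:**
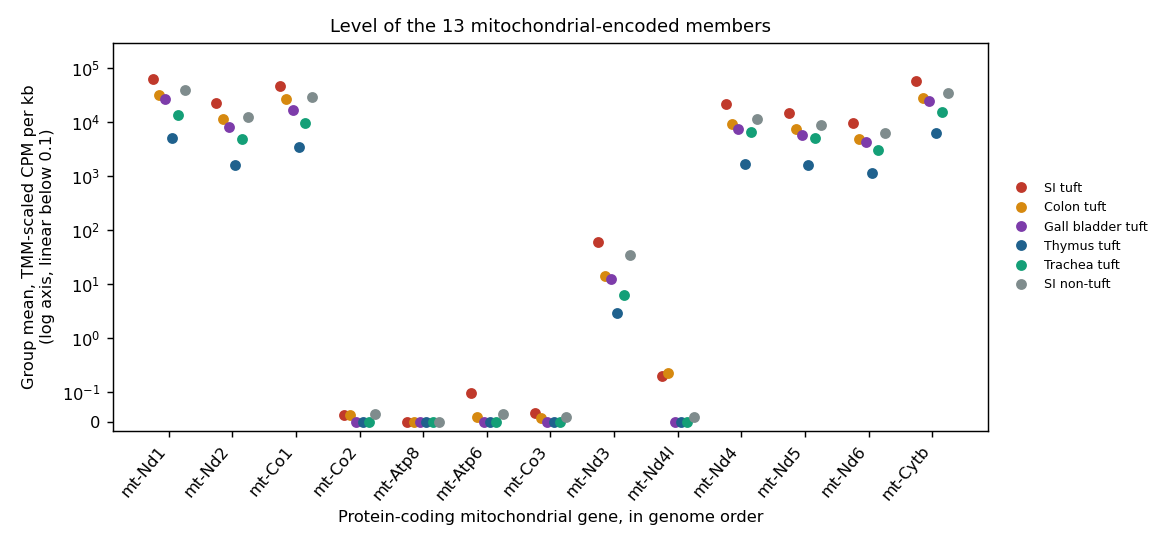
Mean TMM-scaled CPM per kb (log axis, linear below 0.1) of each mitochondrial-encoded member in each group, in genome order. Small intestinal tuft cells are highest and thymic tuft cells lowest for mt-Nd1 to mt-Nd4, mt-Nd5, mt-Nd6, mt-Cytb and mt-Co1, while mt-Co2, mt-Atp8, mt-Atp6, mt-Co3 and mt-Nd4l lie near 0.

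Compared with other small intestinal epithelium, tuft cells of the small intestine had more of the mitochondrial transcripts and of many nuclear-encoded subunits, among them Ndufa1, Ndufa13 and Ndufb7 of complex I. Of the 8 mitochondrial members tested, 6 were higher and none lower, and of the 88 nuclear members tested, 41 were higher and 3 lower, where 21.6% of the 16063 genes tested were higher and 21.9% lower. The median log2 fold change was 0.80 for the mitochondrial and 0.39 for the nuclear members, against -0.03 for all genes tested. Of the calls, 5 mitochondrial and 27 nuclear higher ones and 1 lower one also held in each of the 6 fits without 1 library; the count of lower members was 1 without non-tuft replicate 1 or 2 and 5 without tuft replicate 2. With the spread estimated over all 21 libraries, 4 mitochondrial and 2 nuclear members were higher and none lower. In that fit 821 of all 20335 genes tested were higher and 553 lower, so the nuclear members showed no excess of higher calls.

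By complex, 20 of 36 complex I subunits were higher and 1 lower, with 1 of 4 higher in complex II, 3 of 8 in complex III, 7 of 15 higher and 1 lower in complex IV, and 8 of 17 higher in complex V. Ndufa1, an accessory subunit of complex I encoded on the X chromosome, had 221, 189 and 192 CPM in tuft cells, against 57.0, 51.5 and 66.2 CPM in non-tuft cells (log2 fold change 1.85 ± 0.14 (SE), adjusted p = 5.02e-06). Ndufa13, also known as Grim19, had 547, 413 and 439 CPM in tuft cells, against 151, 151 and 146 CPM in non-tuft cells (log2 fold change 1.70 ± 0.14 (SE), adjusted p = 7.97e-06). The groups did not overlap in either gene. Ndufb7 (167 ± 5.10 against 56.5 ± 1.84 CPM, SD, n = 3 each), Ndufb3, Ndufa2 and Ndufv3 were also higher, with log2 fold changes of 1.62, 1.42, 1.39 and 1.35.

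All of these are accessory subunits, which surround the catalytic core of complex I. They were named for their large fold changes, and accessory and core subunits were not compared as sets. Ndufv1, a core subunit that binds NADH, had 79.4, 93.6 and 113 CPM in tuft cells, against 80.8, 92.0 and 72.9 CPM in non-tuft cells. Ndufs1, an iron-sulphur core subunit, had 68.8, 68.3 and 71.9 CPM, against 66.0, 72.2 and 69.7 CPM. Neither was called (log2 fold change 0.28 ± 0.16 (SE), adjusted p = 0.190 for Ndufv1). Ndufs7 and Ndufs8, which carry iron-sulphur clusters nearer the ubiquinone site, were higher by 0.78 and 0.43 on the log2 scale, the call of Ndufs8 being lost without non-tuft replicate 2. Ndufa9, an accessory subunit, was higher by 0.57 (adjusted p = 0.00456).

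A subunit and an assembly factor of complex I ran the other way. Ndufaf4, an assembly factor, had 33.4, 23.2 and 32.3 CPM in tuft cells, against 63.1, 59.3 and 50.9 CPM in non-tuft cells (log2 fold change -0.90 ± 0.17 (SE), adjusted p = 0.00200), and the groups did not overlap. Ndufc2 had 37.6, 33.0 and 39.5 CPM in tuft cells, against 54.0, 55.1 and 52.3 CPM in non-tuft cells (log2 fold change -0.49 ± 0.13 (SE), adjusted p = 0.0131), a call lost without non-tuft replicate 1 or 2. The third lower member was Cox6b2, listed with the complex IV isoforms below.

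The 6 mitochondrial genes called differed little in size of change. The log2 fold changes were 0.96 for mt-Nd4, 0.92 for mt-Nd2, 0.81 for mt-Cytb, 0.79 for mt-Nd5, 0.75 for mt-Nd1 and 0.68 for mt-Nd6, with SEs between 0.15 for mt-Nd6 and 0.22 for mt-Nd1. mt-Co1 had 107694, 56222 and 54398 CPM in tuft cells, against 54459, 41387 and 42017 CPM in non-tuft cells, and was not called (log2 fold change 0.72 ± 0.27 (SE), adjusted p = 0.0532); its groups overlapped. mt-Nd3 was not called either (0.83, adjusted p = 0.214). The call of mt-Nd1 was lost without non-tuft replicate 2 or 3. mt-Nd5 and mt-Nd6 overlap on opposite strands, and counts of the overlap cannot be told apart without strand.

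Markers of other intestinal cells also differed between these 2 groups. Enterocyte markers were all at 1 CPM or more in both and summed to 38979.7 to 44769.9 CPM in tuft libraries, against 22897 to 24570.4 CPM in non-tuft libraries. Goblet cell markers, 9 of 10 at 1 CPM or more in both, summed to 2139.6 to 2644 CPM in tuft libraries, against 103777 to 113853 CPM in non-tuft libraries. Paneth cell markers (6 of 8 and 8 of 8 at 1 CPM or more) summed to 119.6 to 455 CPM in tuft libraries, against 10402 to 14061 CPM, and enteroendocrine markers (11 of 14 and 14 of 14) to 517 to 1312 CPM, against 11131 to 15870.3 CPM in non-tuft libraries. Proliferation genes, 18 of 18 lower in tuft cells, summed to 538 to 799 CPM in tuft libraries, against 2143 to 2825 CPM, and of the 21 genes of the dissociation response 2 were higher and 11 lower. No marker of these lists was at 0 in either group. Their part in the result was not tested.

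Among the tuft cells of the 5 tissues, most members differed somewhere, as did most genes. In the test of any difference 8 of 8 mitochondrial and 60 of 90 nuclear members (66.7%) were called, where 56.7% of the 19850 genes tested were. The median range of the 5 tissue means on the log2 scale was 3.48 for mitochondrial and 1.93 for nuclear members, against 2.99 for all genes. By that measure nuclear members varied less than the typical gene tested. The nuclear members with the smallest p in that test were Ndufa13, Ndufa5, Atp5j2, Uqcr11 and Atp5b, the catalytic beta subunit of the ATP synthase. Of the 84 nuclear members with a mean of 5 CPM or more in some group, small intestinal tuft cells had the highest of the 5 tuft means in 48 and gall bladder in 29, and thymus had the lowest in 53, trachea in 20 and gall bladder in 10. In the comparisons below each tissue is set against the mean of the other 4, so the 5 comparisons share libraries.

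**Figure D3:**
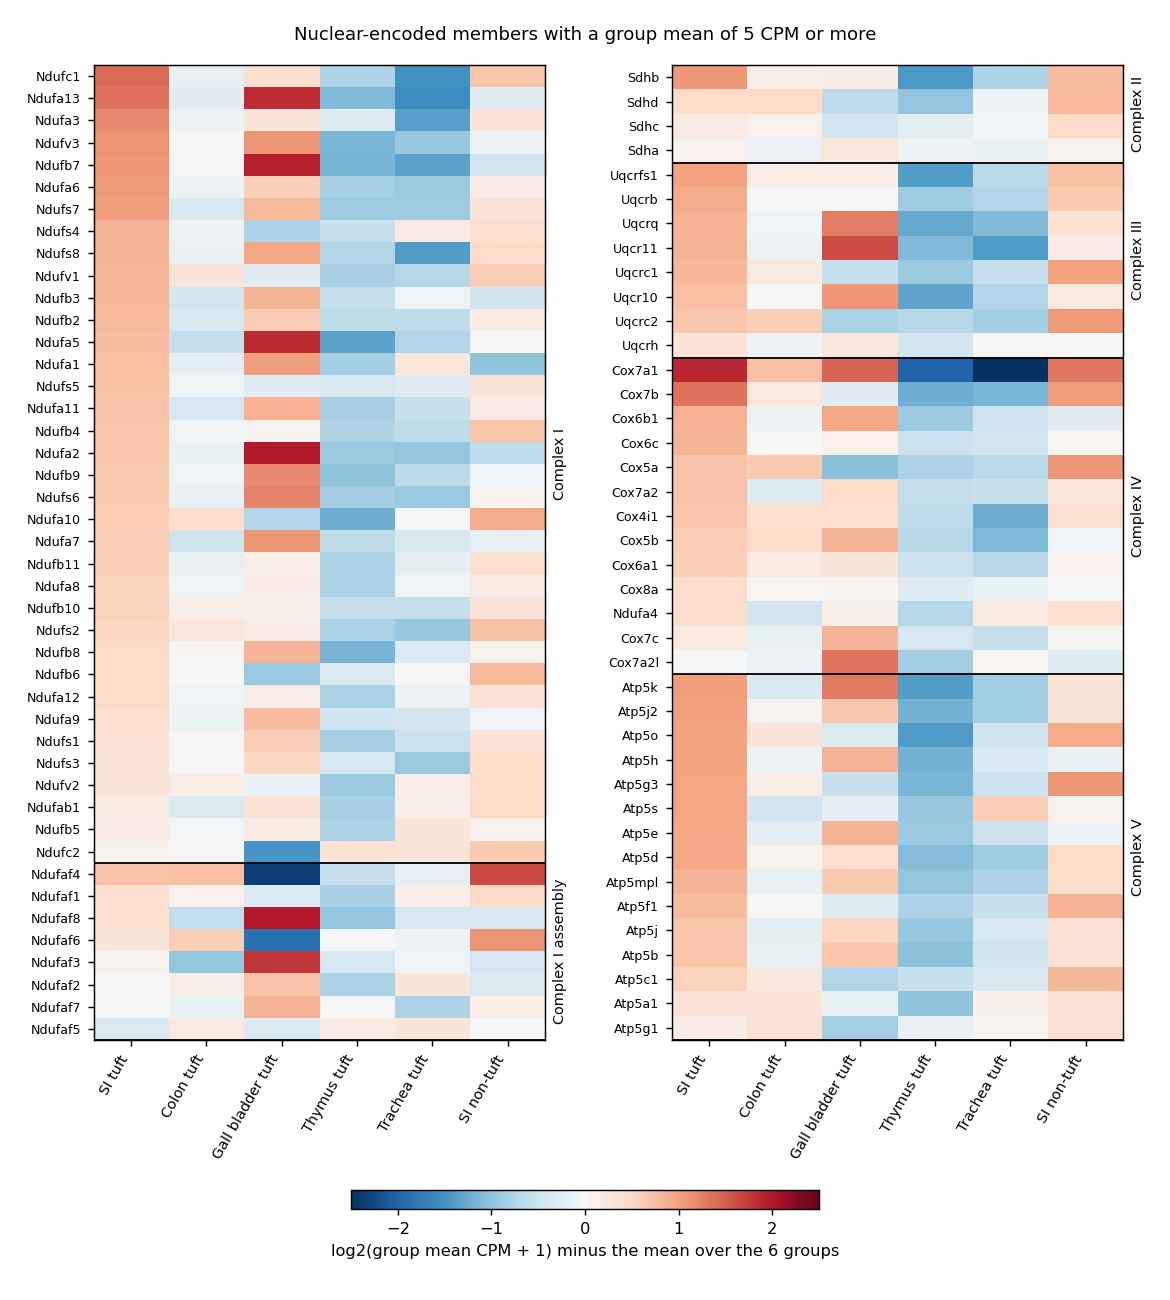
Group means of the 84 nuclear-encoded members with at least 5 CPM in some group, as log2(mean CPM + 1) minus the mean over the 6 groups (red higher, blue lower; colours saturate at 2.5), ordered within each complex by the value in small intestinal tuft cells. The small intestinal tuft column is red in most rows and the thymic column blue, and the gall bladder column holds the reddest complex I rows.

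On the TMM scale, tuft cells of the small intestine had the highest mean sums of mitochondrial and of nuclear members among tuft cells. The nuclear complex I sum, however, was 4349 ± 415 CPM in small intestine and 4899 ± 2167 CPM in gall bladder (SD, n = 3 each). As a share of raw counts, the nuclear members together averaged 1.20% in small intestine and 1.23% in gall bladder. All 8 mitochondrial members tested and 40 of 90 nuclear members were higher and none lower, where 10.7% of genes tested were higher and 8.13% lower. The median log2 fold change was 1.99 for the mitochondrial and 0.94 for the nuclear members, against -0.14 for all genes. Higher were 12 of 17 members of complex V, 10 of 17 tested of complex IV, 6 of 8 of complex III, 10 of 36 of complex I and 1 of 4 of complex II. The nuclear count was 19 without small intestinal replicate 2 or 4 and 26 without replicate 3, and 16 nuclear and all 8 mitochondrial calls held in each of the 18 fits without 1 library.

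Cox7a1, Ndufc1 and Cox7b had the largest differences above 20 CPM. Cox7b, a small complex IV subunit, had 334, 186 and 229 CPM in small intestine, against group means of 114 in colon, 79.0 in gall bladder, 41.0 in thymus and 43.0 CPM in trachea (log2 fold change 1.94 ± 0.32 (SE), adjusted p = 1.79e-04). No library of another tuft tissue reached the small intestinal ones. Ndufc1 had 129, 76.7 and 103 CPM in small intestine (log2 fold change 1.97 ± 0.32 (SE), adjusted p = 1.51e-04), and no library of another tuft tissue was above 65.9 CPM. Enterocyte markers moved with these members. Of the list, 20 of 20 were higher in small intestinal tuft cells than in the other tuft cells, with sums of 38979.7 to 44769.9 CPM in small intestine, 1164 to 1502 in colon, 516 to 1498 in gall bladder, 388 to 601 in thymus and 418 to 970.3 in trachea. Enteroendocrine markers (12 of 14) and tuft markers (13 of 20, with 1 lower) were also higher in small intestine, and 10 of 21 genes of the dissociation response lower. The part of these lists was not tested.

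Colon tuft cells stood close to the mean of the others in nuclear members and above it in mitochondrial ones. Of the mitochondrial members 5 of 8 were higher and of the nuclear 4 of 90, with none lower, where 11.6% of genes tested were higher and 6.59% lower. The median log2 fold change was 0.50 for the mitochondrial and -0.07 for the nuclear members, against -0.01 for all genes. mt-Co1 had 46092, 52828, 29941 and 38191 CPM in colon (log2 fold change 1.02 ± 0.21 (SE), adjusted p = 0.00147). The 4 nuclear genes were Uqcrc2, a core subunit of complex III (199, 208, 151 and 159 CPM, log2 fold change 0.97 ± 0.21 (SE), adjusted p = 0.00254), Cox5a, Ndufaf4 and Cox6b2. Cox5a lost its call without colon replicate 2, 3 or 4, and Ndufaf4 and mt-Nd5 lost theirs without colon replicate 2. The nuclear count was 2 without colon replicate 2 and 7 without gall bladder replicate 1, and 1 and 2 members were lower without gall bladder replicate 4 and tracheal replicate 3. Markers moved with colon in several lists. Colonocyte markers, 8 of 8 higher and all at 1 CPM or more in colon, summed to 2437 to 3372 CPM in colon, against 197 to 258 in small intestine, 95.3 to 158 in gall bladder, 25.2 to 41.3 in thymus and 0.835 to 6.12 CPM in trachea. Goblet cell markers, 5 of 10 higher, summed to 6649.9 to 9216 CPM in colon, against 2139.6 to 2644 in small intestine, 181 to 652 in gall bladder, 1542 to 2659 in thymus and 316 to 1216 CPM in trachea. Proliferation genes, 16 of 18 higher, summed to 1218 to 1779 CPM in colon, against 538 to 799 in small intestine, 79.1 to 147 in gall bladder, 100.5 to 149.5 in thymus and 78.4 to 146 CPM in trachea. Genes of the dissociation response, 11 of 21 higher, summed to 19919 to 23988 CPM in colon, against 6960.0 to 8204 in small intestine, 11590.3 to 26409.5 in gall bladder, 8254 to 9327 in thymus and 10286 to 16161 CPM in trachea. Of the tuft markers, 14 of 20 were lower in colon, and the part of these lists was not tested.

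Gall bladder tuft cells had high levels of many nuclear subunits, with none of the mitochondrial transcripts called. No mitochondrial member was called, with a median log2 fold change of 0.22; mt-Nd1 had an unadjusted p of 0.0331 in edgeR's quasi-likelihood test, DESeq2 called 0 and voom 0, and 1 was called without small intestinal replicate 2 or tracheal replicate 2. Of the nuclear members, 28 of 90 were higher and 5 lower, where 14.2% of genes tested were higher and 9.14% lower, with a median log2 fold change of 0.44, against -0.19 for all genes. Gall bladder replicate 1 had 20108 CPM of nuclear members in all, against 10758 and 10807 in replicates 3 and 4, and without it 10 were higher and 8 lower, with a median of -0.000393.

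Of the 28 higher members, 9 held in each of the 18 fits without 1 library, namely Ndufa2, Ndufa5, Ndufa13, Ndufb7, Ndufaf8, Uqcr11, Uqcrq, Cox7a2l and Atp5b. Ndufa5, an accessory subunit of complex I, had 240.5, 88.3 and 107 CPM in gall bladder, against 66.9, 52.9 and 82.5 in small intestine, 21.3, 28.7, 26.0 and 26.4 in colon, 9.59, 16.0, 20.3 and 13.1 in thymus and 28.3, 20.8, 29.7 and 13.7 CPM in trachea (log2 fold change 2.37 ± 0.28 (SE), adjusted p = 6.71e-06). Its gall bladder libraries were the 3 highest of the 18. Ndufaf8, an assembly factor, had 169.9, 69.4 and 50.3 CPM in gall bladder (log2 fold change 2.45 ± 0.47 (SE), adjusted p = 9.07e-04), with 25.3, 29.1 and 40.4 CPM in small intestine and 3.78 to 40.4 CPM in the other tuft tissues. Cox7a2l, which takes part in joining complexes III and IV into supercomplexes, had 410.0, 192 and 133 CPM in gall bladder (log2 fold change 1.59 ± 0.28 (SE), adjusted p = 3.94e-04).

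The lower members were Ndufaf4, Ndufaf6, Ndufc2, Uqcrc2 and Atp5c1. Ndufaf4 had 2.58, 3.90 and 1.41 CPM in gall bladder, against 33.4, 23.2 and 32.3 in small intestine, 21.7, 41.6, 28.4 and 29.5 in colon, 21.5, 8.31, 7.69 and 8.50 in thymus and 11.9, 12.4, 24.8 and 11.6 CPM in trachea (log2 fold change -2.93 ± 0.58 (SE), adjusted p = 0.00110). No library of another tissue was as low. Ndufc2, whose product pairs with that of Ndufc1 in the membrane arm of complex I, had 13.7, 7.77 and 12.9 CPM in gall bladder (log2 fold change -1.80 ± 0.39 (SE), adjusted p = 0.00233), all below the other 15 tuft libraries. Ndufaf6 had 1 count in the 3 gall bladder libraries together and 0 to 9.09 CPM elsewhere. Uqcrc2 and Atp5c1, the gamma subunit of the ATP synthase, lost their calls in 12 and 2 of the 18 fits, Atp5c1 without gall bladder replicate 1 or 3 and Uqcrc2 among others without gall bladder replicate 3 or 4, any small intestinal or any colon library. Biliary epithelium markers, 5 of 8 higher in gall bladder and 1 lower, summed to 1238 to 1427 CPM in gall bladder, 558 to 750.1 in small intestine, 1685 to 1949 in colon, 184 to 257 in thymus and 852 to 1595 CPM in trachea, and none was at 0 in the tuft groups. In gall bladder 13 of the 20 tuft markers were higher and 3 lower, and 9 of 21 genes of the dissociation response higher and 1 lower. The part of these lists was not tested.

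Thymic tuft cells had the lowest levels of the mitochondrial members and, on the TMM scale, of 53 of the 84 nuclear members compared. All 8 mitochondrial members tested and 35 of 90 nuclear members were lower, and 3 nuclear members were higher, where 27.8% of genes tested were higher and 7.37% lower. The median log2 fold change was -2.34 for the mitochondrial and -0.79 for the nuclear members, against 0.33 for all genes. Scaling without the mitochondrial genes moved this last median to 0.19 and gave 8 mitochondrial and 42 nuclear members lower, where 1773 of 19850 genes were lower. Lower were 11 of 17 members of complex V, 5 of 8 of complex III, 12 of 36 of complex I, 6 of 17 tested of complex IV and 1 of 4 of complex II, and none of the 8 assembly factors was called. All 8 mitochondrial and 21 nuclear calls held in each of the 18 fits.

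mt-Nd1 had 4643, 4358, 5187 and 5709 CPM in thymus, against 85361, 47404 and 52794 in small intestine and 8623, 19242, 13315 and 10824 CPM in trachea (log2 fold change -2.37 ± 0.20 (SE), adjusted p = 2.96e-08 against the mean of the other 4 tissues). Every thymic library was below every other library. Atp5b, at 523, 616, 652 and 677 CPM in thymus, 903, 1161, 807 and 647 CPM in trachea and 2627, 1455 and 1949 CPM in small intestine, was lower in thymus than the mean of the other 4 (log2 fold change -1.05 ± 0.18 (SE), adjusted p = 1.32e-04). Its thymic and tracheal libraries overlapped. Ndufa5, Atp5k and Sdhb had the largest differences above 20 CPM, with log2 fold changes of -1.61, -1.58 and -1.50, and each of the 3 calls held in all 18 fits.

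The 3 higher members in thymus were Ndufc2 (32.1, 37.9, 47.3 and 57.0 CPM, log2 fold change 0.77 ± 0.29 (SE), adjusted p = 0.0438), a call lost in 15 of the 18 fits, and Cox6a2 and Cox8b, both under 1 CPM in every thymic library. The count was 1 without thymic replicate 2 and 0 without replicate 4. Thymic libraries also carried markers of other cells. Of the 11 identifiers for thymic epithelium, 9 of 9 tested were higher in thymus, with sums of 1538 to 1967 CPM in thymus, 46.4 to 70.1 in small intestine, 235 to 298 in colon, 44.4 to 126 in gall bladder and 109 to 213 CPM in trachea, and 1 of the 2 identifiers for Ccl21a was at 0 in thymus. Airway basal markers, which share Krt5 with the thymic epithelium list, were all at 1 CPM or more in thymus. They summed to 1237 to 1291 CPM there, 304 to 989.7 in trachea, 2.64 to 3.45 in small intestine, 5.86 to 22.0 in colon and 0.0358 to 8.94 CPM in gall bladder. Myeloid markers, 11 of 11 at 1 CPM or more in thymus, summed to 259 to 311 CPM there, 25.6 to 53.7 in small intestine, 20.9 to 36.8 in colon and 61.4 to 135 CPM in gall bladder. The myeloid sum was highest in trachea, at 1751 to 3926 CPM. T cell markers (6 of 10 higher) summed to 13.0 to 41.0 CPM in thymus, 22.8 to 32.6 in small intestine and 19.9 to 43.2 CPM in gall bladder, which overlapped. They summed to 3.81 to 5.85 CPM in colon and 0.0353 to 2.67 CPM in trachea. Of the markers of fibroblasts and endothelium 7 of 7 tested were higher in thymus, of the muscle genes 9 of 10 tested, and of the tuft markers 3 were higher and 7 lower. The part of these lists in the lower levels was not tested.

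Tracheal tuft cells were also low in many nuclear members, among them Ndufa13, Cox4i1 and Uqcr11, and in 4 mitochondrial ones. Of the mitochondrial members 4 of 8 were lower and of the nuclear 24 of 90 were lower and 1 higher, where 19.8% of genes tested were higher and 14.6% lower. The median log2 fold change was -0.60 for the mitochondrial and -0.63 for the nuclear members, against -0.01 for all genes. Lower were 10 of 36 complex I subunits, 4 of 8 in complex III, 6 of 17 tested in complex IV, 3 of 17 in complex V and 1 of 4 in complex II. Of the calls, 3 mitochondrial and 17 nuclear lower ones held in each of the 18 fits, mt-Co1 being the mitochondrial call lost, without pool 1 or 3. With the male pools only, 2 mitochondrial and 13 nuclear members were lower and none higher, where 1925 of 21343 genes were lower and 3301 higher. The female pools alone were not fitted.

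Ndufa13 had 98.7, 73.2, 21.1 and 48.6 CPM in trachea, against 46.4, 99.7, 96.1 and 89.7 in thymus, 110.0, 158, 164 and 172 in colon and 936, 621 and 393 CPM in gall bladder (log2 fold change -2.07 ± 0.34 (SE), adjusted p = 1.02e-04 against the mean of the other 4 tissues). Tracheal and thymic libraries overlapped, and those of the 3 abdominal tissues lay above. Cox4i1, the main isoform of the regulatory subunit 4 of complex IV, had 127, 74.0, 70.1 and 48.4 CPM in trachea, against 98.8, 179, 150.4 and 62.1 CPM in thymus and 266, 298 and 369.8 CPM in small intestine (log2 fold change -1.51 ± 0.31 (SE), adjusted p = 9.50e-04). Ndufb7 was also lower (log2 fold change -1.86 ± 0.48 (SE), adjusted p = 0.00543). The higher member was Atp5g2, at 0.0843, 0.236, 7.17 and 0.494 CPM, which had 7.17 CPM in replicate 3 and at most 0.494 CPM in the others. This call was lost without that replicate, without small intestinal replicate 2 or 4, without colon replicate 2, 3 or 4, and without gall bladder replicate 3 or 4.

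Markers of other airway cells were present in the tracheal libraries. Airway secretory markers, 9 of 9 higher in trachea, summed to 32747 to 137965 CPM in trachea, 88.7 to 262 in small intestine, 13.3 to 23.4 in colon, 31.2 to 735 in gall bladder and 429 to 993 CPM in thymus. Airway basal markers, 6 of 7 higher, summed to 304 to 989.7 CPM in trachea and at most 22.0 CPM in the 3 abdominal tissues. Ciliated cell markers summed to 107 to 287 CPM in trachea, 22.8 to 31.1 in small intestine, 307 to 498 in colon, 627 to 717 in gall bladder and 262 to 461 CPM in thymus. Of the 10 genes, 7 were at 1 CPM or more in trachea, 4 in small intestine, 3 in colon, 5 in gall bladder and 10 in thymus. Their median log2 fold change was 2.08 in trachea, -3.12 in small intestine, -1.10 in colon, -1.37 in gall bladder and 3.73 in thymus. Sum and median thus ordered the tissues differently. Myeloid markers summed to 1751 to 3926 CPM in trachea, with 4 of 11 at 1 CPM or more and Cx3cr1 and Fcer1g at 0. Their part was not tested.

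**Figure D4:**
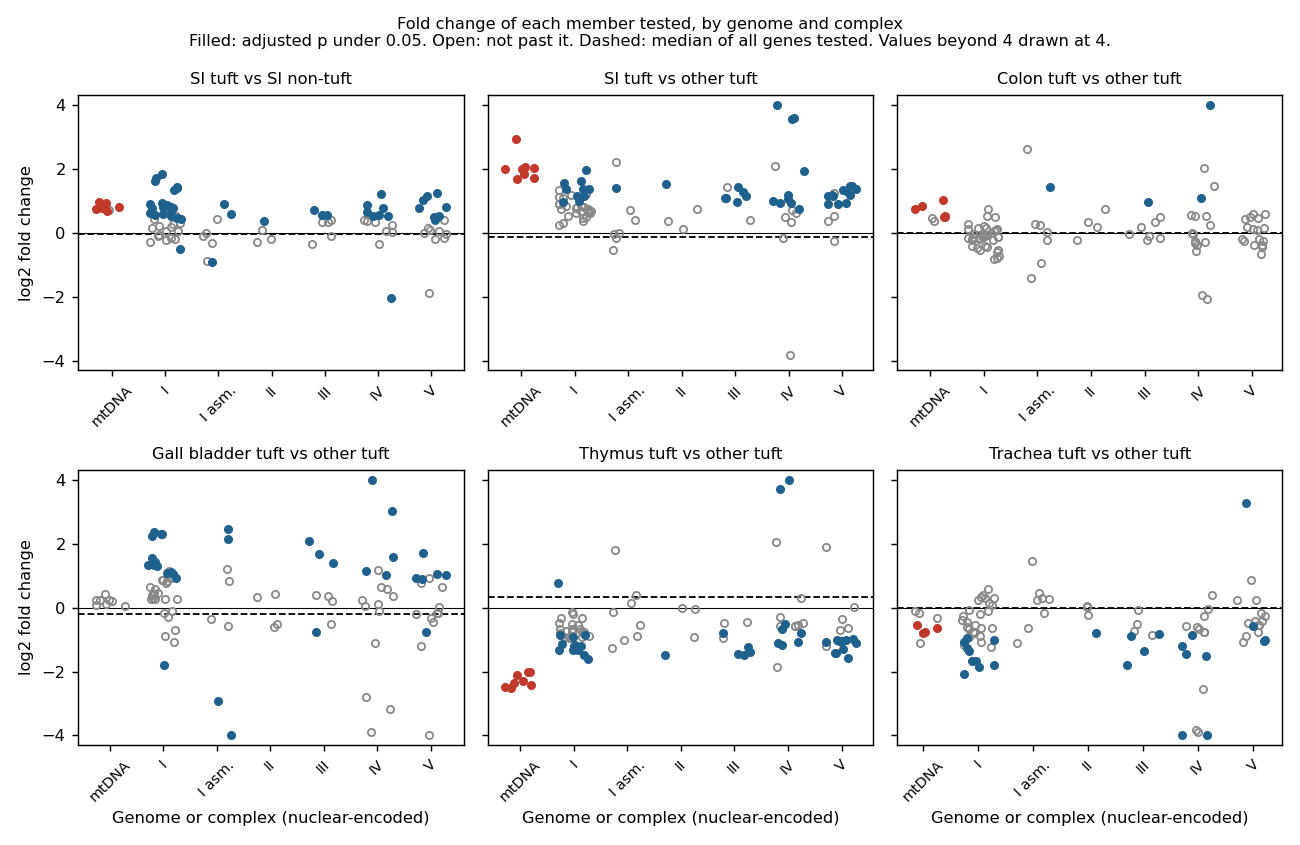
Log2 fold change of each member tested in each of the 6 comparisons, in columns for the mitochondrial genome (mtDNA) and the nuclear members by complex (I asm., assembly factors); filled points had an adjusted p under 0.05, open points did not, the dashed line is the median of all genes tested, and values beyond 4 are drawn at 4. The medians were 1.99 for mitochondrial and 0.94 for nuclear members in small intestine, and -2.34 and -0.79 in thymus.

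Within complex I, 10 subunits were called higher in small intestine and 13 in gall bladder. Ndufc1, Ndufa3 and Ndufa6 were called higher in small intestine and not in gall bladder, and Ndufa2, Ndufb7 and Ndufb9 in gall bladder and not in small intestine; the difference between these calls was not tested. Of these 6, Ndufa6 lost its call without any 1 of the small intestinal libraries, Ndufa3 without replicate 4 and Ndufb9 without gall bladder replicate 1. In all, 3 of the 10 complex I calls in small intestine and 4 of the 13 in gall bladder held in each of the 18 fits. Ndufa2 had 586 ± 192 CPM in gall bladder and 238 ± 39.5 CPM in small intestine (SD, n = 3 each). Ndufs4, which is needed for a complete complex I, had 111 ± 29.9 CPM in small intestine and 35.4 ± 30.1 CPM in gall bladder. Of the core subunits, Ndufv1 was not called in any of the 6 comparisons, and of the 6 Ndufs1 was called only in thymus (adjusted p = 0.0495), a call lost in 12 of the 18 fits. Genes on the opposite strand overlap Ndufs1 and Cox4i1, and without strand their reads cannot be told apart.

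In complex II, which also serves the tricarboxylic acid cycle and has only 4 members, all calls were of Sdhb. Sdha, the flavoprotein that oxidises succinate, had 344, 294 and 327 CPM in small intestinal tuft cells, 228, 267, 271 and 317 in colon, 583, 275 and 217 in gall bladder, 229, 339, 288 and 233 in thymus and 264, 368, 229 and 201 CPM in trachea, against 310.4, 322 and 324 CPM in non-tuft cells. Every pair of groups overlapped, and Sdha was called in none of the 7 tests. Sdhc and Sdhd, the membrane anchors, were not called in any of the 7 tests either. Sdhb, the iron-sulphur subunit, did differ, with 215, 163 and 203 CPM in small intestinal tuft cells, 26.1, 40.3, 41.1 and 25.0 in thymus and 87.6, 30.1, 55.3 and 38.0 CPM in trachea (log2 fold change 1.53 ± 0.28 (SE), adjusted p = 5.67e-04 in small intestine). It was lower in thymus (log2 fold change -1.50 ± 0.31 (SE), adjusted p = 8.13e-04). Its smaller differences from non-tuft cells (0.37) and in trachea (-0.80) passed the threshold but lost it in 5 of 6 and 13 of 18 fits without 1 library.

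In complex III the small subunits Uqcr11 and Uqcrq were high in gall bladder, while the core protein Uqcrc2 was low in gall bladder, thymus and trachea alike. Uqcrc1 had 257 ± 23.0 CPM in small intestine, 169.8 ± 20.7 in colon, 95.7 ± 60.9 in gall bladder, 74.9 ± 2.74 in thymus and 95.5 ± 16.8 CPM in trachea, against 287 ± 20.7 CPM in non-tuft cells (SD, n = 3 or 4). Uqcrc2 averaged 67.6 ± 25.6 CPM in gall bladder, 72.6 ± 20.3 in thymus and 64.7 ± 10.8 in trachea, with overlapping libraries, and its gall bladder call was lost in 12 of the 18 fits. Uqcr11, a small subunit, had 113 ± 12.0 CPM in small intestine, 57.0 ± 17.8 in colon, 194 ± 88.6 in gall bladder, 28.6 ± 9.84 in thymus and 22.6 ± 10.3 CPM in trachea, against 71.2 ± 3.51 CPM in non-tuft cells. Uqcr11 and Uqcrq were called higher in gall bladder, with log2 fold changes of 2.09 and 1.69, where Uqcrc1 (-0.50) was not called. Uqcrfs1, the Rieske iron-sulphur protein, was higher in small intestine (log2 fold change 1.44 ± 0.36 (SE), adjusted p = 0.00691), a call lost without small intestinal replicate 2, and lower in thymus (log2 fold change -1.46 ± 0.39 (SE), adjusted p = 0.00624). Uqcrh was not called in any test.

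Complex IV holds the isoform pairs, and Cox7a1 was the member with the widest range. Cox7a1, known as the heart and skeletal muscle isoform of subunit 7a, had 45.9, 37.0 and 47.2 CPM in small intestinal tuft cells, 17.4, 16.3, 22.2 and 19.1 in colon, 53.7, 40.8 and 0.366 in gall bladder replicates 1, 3 and 4, 1.65, 2.69, 3.55 and 0.0559 in thymus and 0.197, 0.204, 0.155 and 0 CPM in trachea, against 25.7, 32.9 and 28.4 CPM in non-tuft cells. Intestinal libraries and 2 of 3 gall bladder libraries were thus well above thymus and trachea, and the third gall bladder library was within the thymic range. Its log2 fold change was 3.55 ± 0.74 (SE) in small intestine (adjusted p = 0.00168) and -6.74 ± 1.24 in trachea (adjusted p = 3.41e-04), and both calls held in all 18 fits. In gall bladder it was 3.02 ± 0.75 (adjusted p = 0.00658), a call lost without replicate 1, and in tuft against non-tuft cells of the small intestine 0.64 (adjusted p = 0.00886), lost without non-tuft replicate 1.

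Markers of muscle had their own order over the groups. Of 12 muscle genes, 8 were at 0 in small intestinal tuft cells and 6 in gall bladder, among them Ckm, Myh1, Myh2 and Myh7 in both, and the list summed to 43.6 to 88.0 CPM in small intestinal tuft cells, 91.9 to 138 in colon, 0.143 to 3.66 in gall bladder, 112 to 195 in thymus and 0.106 to 2.31 CPM in trachea, against 80.5 to 101 CPM in non-tuft cells. The ubiquitous isoform Cox7a2 varied less, at 92.4 ± 15.2 CPM in small intestine, 45.2 ± 9.50 in colon, 78.3 ± 25.1 in gall bladder, 36.8 ± 13.3 in thymus and 37.8 ± 19.5 CPM in trachea, against 67.2 ± 2.30 CPM in non-tuft cells (SD, n = 3 or 4). Per length, Cox7a1 averaged 81.1 and Cox7a2 97.9 CPM per kb in small intestinal tuft cells.

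**Figure D5:**
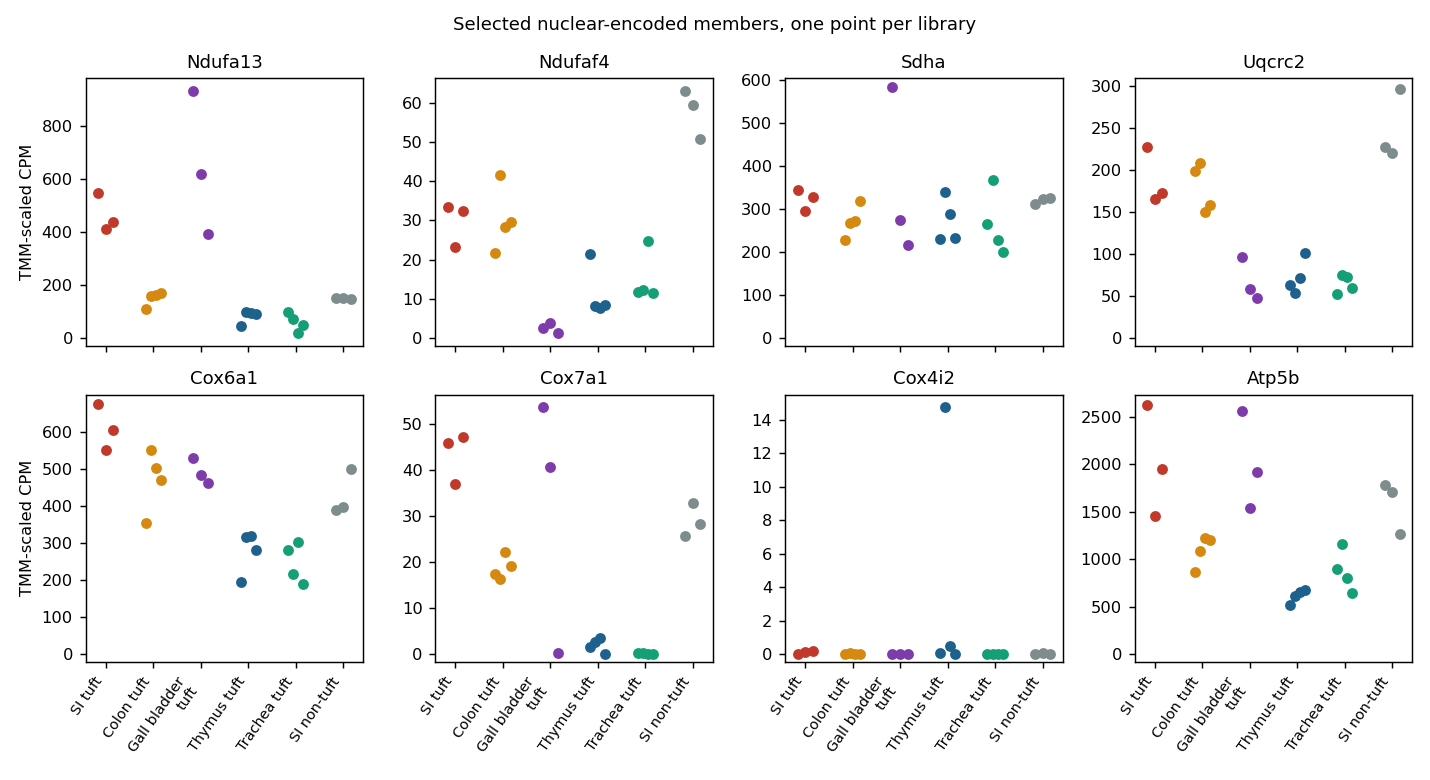
TMM-scaled CPM of 8 nuclear-encoded members, 1 point per library, in the 5 tuft groups and the non-tuft reference. Sdha overlaps across groups, Ndufaf4 is low in gall bladder and Ndufa13 is high there, Uqcrc2 is low in gall bladder, thymus and trachea, Cox7a1 is split within gall bladder, and Cox4i2 appears in a single thymic library.

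The other tissue isoforms were at or near 0. Cox4i2, the isoform known from lung and from cells that respond to low oxygen, had 14.8 CPM in thymic replicate 2 and at most 0.479 CPM in every other library. Cox6b2, known from testis, had 0.926, 1.03, 5.56 and 5.80 CPM in colon and 1.04, 1.33 and 0.171 CPM in small intestinal tuft cells, against 3.61, 3.57 and 3.69 CPM in non-tuft cells (log2 fold change -2.04 ± 0.65 (SE), adjusted p = 0.0286 for small intestinal tuft against non-tuft cells, lost without any 1 of the 3 non-tuft libraries). Cox6a2, the heart and muscle partner of Cox6a1, stayed at or under 1.53 CPM in all 21 libraries, while Cox6a1 averaged 609.9 ± 62.9 CPM in small intestinal tuft cells and 247 ± 53.6 CPM in trachea. Cox8b was at most 1.31 CPM, in gall bladder replicate 4, Cox7b2 at most 0.0846 CPM and Ndufa4l2 at most 0.625 CPM, and Cox8c had no count. At these levels the calls of Cox6a2 and Ndufa4l2 in small intestine and of Cox8b in gall bladder and thymus rest on few reads, and no fold change is given.

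Cox8a had 374 ± 44.8 CPM in small intestinal tuft cells and 221 ± 56.0 CPM in thymus, against 269 ± 3.84 CPM in non-tuft cells, and was called only against non-tuft cells (log2 fold change 0.54 ± 0.13 (SE), adjusted p = 0.00676). Cox6b1 was higher in tuft than in non-tuft cells of the small intestine, at 391, 344 and 403 CPM in tuft cells, against 160.0, 189 and 159.6 CPM in non-tuft cells (log2 fold change 1.22 ± 0.13 (SE), adjusted p = 5.56e-05). Ndufa4, which is counted with complex IV, had 321, 272 and 235 CPM in small intestinal tuft cells, against 287, 277 and 256 CPM in non-tuft cells, and those groups overlapped.

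In complex V, 12 of 17 members were higher in small intestine and 11 lower in thymus. Atp5a1, the alpha subunit of the catalytic head, had 1058 ± 72.7 CPM in small intestine, 1032 ± 163 in colon, 722 ± 225 in gall bladder, 411 ± 101 in thymus and 895 ± 406 CPM in trachea, against 1062 ± 111 CPM in non-tuft cells (SD, n = 3 or 4), and was called only in thymus and in the test of any difference (log2 fold change -1.03 ± 0.23 (SE), adjusted p = 0.00158 in thymus). Atp5j2 and Atp5k, small subunits of the membrane part, were higher in small intestine by 1.33 and 1.38 on the log2 scale and lower in thymus, with log2 fold changes of -1.29 and -1.58; Atp5k lost its call in small intestine without replicate 2 or 4. Of the 3 genes for the rotating c ring, Atp5g3 carried nearly all counts, at 386, 248 and 308 CPM in small intestinal tuft cells and 64.2, 75.3, 80.8 and 64.7 CPM in thymus, against 353, 329 and 324 CPM in non-tuft cells (log2 fold change 1.48 ± 0.20 (SE), adjusted p = 1.65e-05 for small intestine against the other tuft tissues). Atp5g1 was between 0.801 and 15.5 CPM and Atp5g2 at most 7.17 CPM in any library. Of the 50-base windows of Atp5g2, 38.3% also occur in other annotated transcripts, as do 41.6% of those of Atp5o, 28.5% of Ndufa13, 17.6% of Uqcrc2 and 13.8% of Cox7a2l, so that the counts of these genes are uncertain.

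The 73 nuclear members with at least 20 CPM in some group resembled the mitochondrial sum to different degrees. Over the 6 group means, Pearson's r of their level with the mitochondrial sum had a median of 0.76, 31 were above 0.8 and 1 was below 0; as the 6 points share libraries and scaling, this is a description only. Uqcrfs1 (0.98), Sdhb (0.97) and Atp5o (0.96) were most alike. The nuclear members are short, with a median longest transcript of 875 bases, against 3019 for the protein-coding genes tested. Across the 88 members tested in small intestinal tuft against non-tuft cells, Spearman's rho of the log2 fold change with length was -0.39, against -0.09 across all genes. Among tissues, across 90 members, it was -0.13 in small intestine, 0.28 in colon, -0.26 in gall bladder, 0.09 in thymus and 0.27 in trachea, where all genes gave -0.19, -0.01, 0.04, 0.03 and 0.15. With the GC content of the longest transcript rho was 0.24 against non-tuft cells, and 0.18, -0.02, 0.27, -0.16 and -0.43 in the 5 tissues in the same order, where all genes gave 0.18 against non-tuft cells and 0.08, -0.00, 0.12, -0.03 and -0.14. The part of length and of GC content in the results was not tested.

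Among genes that act with the chain, 12 of 18 glycolytic genes were higher in small intestinal tuft than in non-tuft cells, and regulators of biogenesis, the tricarboxylic acid cycle and mitochondrial DNA maintenance had more lower than higher calls, where 21.6% of all genes tested were higher and 21.9% lower. Of 38 assembly factors outside the rule, 7 were higher and 8 lower, of 75 mitochondrial ribosomal proteins 14 and 21, of 21 genes of mitochondrial DNA maintenance and transcription 2 and 7, of 13 regulators of mitochondrial biogenesis 1 and 8, and of 19 tricarboxylic acid cycle genes 1 and 6. Tfam, which packages mitochondrial DNA and starts its transcription, averaged 12.4 CPM in tuft cells, against 23.6 CPM in non-tuft cells (log2 fold change -0.87, adjusted p = 0.00486). Ppargc1a, a coactivator of mitochondrial biogenesis, averaged 87.6 CPM in tuft cells, against 82.6 CPM in non-tuft cells and was not called (adjusted p = 0.502). Of 7 genes of defence against reactive oxygen 3 were higher and 1 lower, and of 4 uncoupling proteins and ADP/ATP carriers 1 was higher. Of the glycolytic genes 3 were lower. Hk1 averaged 90.2 CPM in tuft cells, against 15.8 CPM in non-tuft cells, and Hk2, the other main hexokinase, 13.3 CPM, against 109 CPM (log2 fold changes 2.57 and -2.97, adjusted p = 1.62e-05 and 5.48e-05).

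Between tuft tissues, Cyc1, cytochrome c1 of complex III, lies outside the symbol rule and averaged 288 CPM in small intestine, 248 in colon, 182 in gall bladder, 84.7 in thymus and 68.2 CPM in trachea. Cycs, cytochrome c itself, was between 2.09 and 7.69 CPM in the group means and was called in none of the 7 tests. Of the cytochrome c and c1 list, 1 of 3 was higher in small intestine, 1 lower in each of gall bladder, thymus and trachea, and none was called against non-tuft cells. Of all genes tested, 10.7% were higher and 8.13% lower in small intestine, 11.6% and 6.59% in colon, 14.2% and 9.14% in gall bladder, 27.8% and 7.37% in thymus, and 19.8% and 14.6% in trachea. Of 19 glycolytic genes, 10 were higher and 2 lower in small intestine, 7 and 1 in colon, 1 and 2 in gall bladder, 2 and 6 in thymus and 2 and 9 in trachea. Ldha, which makes lactate, averaged 1233 CPM in small intestine, 496 in colon, 163 in gall bladder, 99.0 in thymus and 148 CPM in trachea, and Hk2 478 CPM in colon, against 0.809 to 21.4 CPM in the other 4 tuft tissues (log2 fold change in colon 6.05, adjusted p = 1.72e-09).

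Ucp2, an uncoupling protein of the inner membrane, averaged 1709 CPM in small intestine, 884 in colon, 1431 in gall bladder, 225 in thymus and 829 CPM in trachea, against 1243 CPM in non-tuft cells. Its log2 fold change in thymus was -2.23 (adjusted p = 9.16e-09). Of the 5 uncoupling proteins and ADP/ATP carriers tested among tuft tissues, 3 were higher and 1 lower in small intestine, 2 and 1 in colon, 1 and 1 in gall bladder, 1 and 3 in thymus and none and 2 in trachea. Of the 76 mitochondrial ribosomal proteins, 7 were higher in small intestine, 1 in colon and 3 in gall bladder with none lower, and 2 were higher and 8 lower in thymus and 3 and 2 in trachea. Of 7 genes of defence against reactive oxygen, 1 was lower in thymus, 1 was higher in trachea and none was called in the other 3 tissues. Of the assembly factors outside the rule, 1 of 38 was higher in small intestine, none was called in colon, 3 were higher and 2 lower in gall bladder, 2 and 2 in thymus and 4 and 2 in trachea. Of the genes of mitochondrial DNA maintenance and transcription, 1 of 21 was higher in small intestine and in thymus, 1 lower in colon, 2 higher and 1 lower in gall bladder and 3 and 2 in trachea, and Tfam was not called in any tissue. Of the tricarboxylic acid cycle genes, 5 of 19 were higher and 1 lower in small intestine, 3 higher in colon, 2 lower in gall bladder, 5 lower in thymus, and 2 higher and 4 lower in trachea. Of the 14 biogenesis regulators, 2 were higher in colon, among them Ppargc1a (log2 fold change 1.46, adjusted p = 0.0234), 1 was lower in small intestine, 2 were higher and 2 lower in gall bladder, and 1 was higher and 1 lower in each of thymus and trachea.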

How the data were processed

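Per the labels, each library came from 1 mouse or, for trachea, a pool of 4. They do not say whether libraries with the same replicate number share a mouse, so p-values treat libraries as independent and measure the spread between them. Each deposited table holds 1 raw count per gene and library, which the authors had not normalized; per the submitters' processing notes they used STAR, DESeq2 and GRCm38, with no versions given, and the sources used here name no counting program, strand setting or annotation. Of 43432 gene identifiers, 42548 matched the GENCODE M21 annotation and 884, with 0.0986% of counts, did not. The members and gene lists were chosen with earlier results of these data known.

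Counts were tested in R 4.3.3 with edgeR 4.0.16 (filterByExpr, TMM, glmQLFit and the quasi-likelihood F test, Benjamini-Hochberg adjustment over all genes tested, called under an adjusted p of 0.05), in 1 fit of the 6 small intestinal libraries (16063 genes) and 1 of the 18 tuft libraries (19850 genes). Both fits were checked on simulated data. Alternatives were DESeq2 1.42.0, voom in limma 3.58.1, other scaling and filters, a fold threshold, each library left out, a replicate block, all 21 libraries (20335 genes) and male tracheal pools only. Levels are TMM-scaled CPM over all 21 libraries, and per kb of merged exons where genes are compared. Tables and sequences were read with Python 3.11.15.

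Named beside the mitochondrial genes, the isoform sets, Sdha to Sdhd and 8 core or well-known subunits were the called nuclear members with the largest log2 fold changes in each direction and at least 20 CPM in the higher group (6 against non-tuft cells, 3 in each tissue), and the 5 with the smallest p among tissues. Other members, among them the calls that held in every fit, were named after their values were seen. Depth was 25739248 to 73574745 counts per library, and the error of each value is the spread between libraries.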

Additional observations from a re-analysis of the deposited data

Results flagged for a closer look

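In groups of 4 libraries, 12 of 169 had a library whose distance from the nearest other exceeded Dixon's 95% critical value as a part of the range; chance flags about 1 in 20 groups. In trachea the ratio of the mitochondrial to the nuclear sum was 6.32 in replicate 1 and 11.6 to 12.4 in the others, Sdhc had 332 CPM in replicate 1 and 125 to 139 CPM in the others, and Ndufaf4 had 24.8 CPM in replicate 3 and 11.6 to 12.4 CPM in the others. Atp5g2 had 7.17 CPM in tracheal replicate 3 and 0.0843 to 0.494 CPM in the others.

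In thymus Atp5g2 had 3.29 CPM in replicate 3 and 0.0368 to 0.0963 CPM in the others. Thymic replicate 2 had 14.8 CPM of Cox4i2, against 0 to 0.479 CPM in the others, and 2.36 CPM of Cox6b2, against 0.0373 to 0.385 CPM. Thymic replicate 1 had 21.5 CPM of Ndufaf4, against 7.69 to 8.50 CPM, and 79.0 CPM of Uqcrc1, against 72.9 to 73.9 CPM. In colon replicate 2 had 139 CPM of Uqcrc1, against 178 to 185 CPM, and 15201 CPM of mt-Nd2, against 10442 to 11237 CPM, and replicate 4 had 163 CPM of Atp5g3, against 182 to 184 CPM.

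Counts outside the members were seen on the 7 annotated chromosome 1 copies of mitochondrial genes, which summed to 72.8 CPM in small intestinal tuft cells (62.1 to 85.1), against 49.2 CPM in non-tuft cells.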

How the results depend on the processing

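With a threshold of at least 2-fold beside the adjusted p, small intestinal tuft against non-tuft cells gave 0 mitochondrial members higher and 10 nuclear members higher and 1 lower. By the same threshold, 1 mitochondrial member was higher in colon, 3 nuclear members were lower in gall bladder and 0 mitochondrial members were lower in trachea. With all 21 libraries in the fit, 2 nuclear members were higher and 0 lower in small intestinal tuft against non-tuft cells, where 821 of 20335 genes were higher and 553 lower. Voom with sample weights gave 74 nuclear members higher in small intestine, 17 higher and 4 lower in colon, 2 lower in gall bladder, 1 higher in thymus, and 0 higher and 11 lower in trachea, with 0 mitochondrial members lower in trachea. Of all 19850 genes, voom called 4484 higher in small intestine, 3500 higher and 2256 lower in colon and 615 lower in gall bladder. It called 5884 genes higher in thymus, and 2052 higher and 1588 lower in trachea. DESeq2 gave 7 nuclear members higher and 2 lower in colon, 8 lower in gall bladder and 1 higher in thymus. Of all 19850 genes, it called 2238 higher and 2239 lower in colon, 3556 lower in gall bladder and 5114 higher in thymus. Without a filter on low counts 3 nuclear members were lower in gall bladder, where 1566 of 29816 genes were. With at least 5 CPM in 3 libraries 0 were higher in thymus and 0 in trachea, where 2837 and 3420 of 13513 genes were. With male tracheal pools only, 2 mitochondrial and 13 nuclear members were lower and 0 nuclear members higher in trachea, where 1925 of 21343 genes were lower and 3301 higher. The cause of these shifts was not tested, except that the fits with fewer libraries have fewer residual degrees of freedom and a fold threshold can only remove calls.

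Deviations of samples with the same replicate number correlated at -0.032 and -0.016 for the 2 pairs of the 6 libraries. Other pairs there ran from -0.014 to 0.032. For 32 same-number pairs of the 18 libraries the correlations were -0.023 to 0.131, of which 1 was over 0.1. Other pairs there ran from -0.074 to 0.038. All correlations were small, but some same-number pairs lay above every other pair. Colon and thymus, for example, gave 0.078, 0.069, 0.063 and 0.071 for replicates 1, 2, 3 and 4. Whether the numbers mark shared mice cannot be told from these values. With the replicate number as a block, 25 nuclear members were higher and 1 lower in small intestinal tuft against non-tuft cells, where 2418 of 16063 genes were higher and 2455 lower. With it 1 mitochondrial member was higher in gall bladder, 1 nuclear member in thymus and 0 in trachea, where 1807, 5065 and 2695 of 19850 genes were higher. The block moved no other count of members by more than 1.5 times.

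Over the fits without 1 library, 5 to 7 mitochondrial and 30 to 41 nuclear members were higher and 1 to 5 nuclear members lower in small intestinal tuft against non-tuft cells. Against the other tuft tissues, 8 mitochondrial members (in every fit) and 19 to 49 nuclear members were higher in small intestine. In colon 4 to 7 mitochondrial and 2 to 7 nuclear members were higher and 0 to 2 nuclear members lower. In gall bladder 0 to 1 mitochondrial and 10 to 29 nuclear members were higher and 4 to 8 nuclear members lower, and the median log2 fold change of nuclear members ran between -0.000393 without gall bladder replicate 1 and 0.61 without replicate 4. In thymus 8 mitochondrial and 24 to 46 nuclear members were lower and 0 to 4 nuclear members higher, and in trachea 3 to 5 mitochondrial and 19 to 31 nuclear members were lower and 0 to 1 nuclear members higher. The test of any difference called 8 mitochondrial members in every fit and 54 to 64 nuclear members. Of the named members under all alternatives together, 1949 results kept their side of the threshold, 30 passed it newly and 56 no longer passed it. No result that passed it in either setting changed sign, and signs of results called in neither were not compared.

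Sums of levels moved with scaling. TMM without the mitochondrial genes gave mitochondrial sums of 123701 CPM in gall bladder, 30055 in thymus and 194555 CPM in non-tuft cells, and nuclear sums of 6271 CPM in thymus and 13331 CPM in non-tuft cells. Raw library totals gave mitochondrial sums of 99728 CPM in gall bladder and 35132 CPM in thymus, and nuclear sums of 12008 CPM in small intestinal tuft cells, 7357 in thymus and 10993 CPM in non-tuft cells. By raw totals the mean nuclear share was highest in gall bladder, at 1.23% against 1.20% in small intestinal tuft cells. It was lowest in trachea, at 0.674% against 0.736% in thymus. The median of all genes in thymus was 0.43 with RLE scaling. Scaling alone moved the share of higher calls by less than 10 points, but DESeq2 called 2005 genes higher and 2801 lower in small intestine, 2238 and 2239 in colon and 2769 and 3556 in gall bladder, where edgeR called 2118 and 1613, 2294 and 1309, and 2815 and 1815. Groups of 3 or 4 libraries, strand that is not given and shared windows limit all of these values.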
